A study of Mus musculus with 4 samples.

Results

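The nuclear pore complex is the channel through which RNA and protein pass between nucleus and cytoplasm, and the genes described here encode its subunits, the nucleoporins. They were chosen by name, from a list of 31 mouse genes, and all 31 had a row among the 55357 gene identifiers of the count table. A total of 30 had enough reads to be tested, and Nupl1 had none. The cells were taken from the testes of C57BL/6 mice aged 7 days, and DDX20, a DEAD-box RNA helicase of the SMN complex, was immunoprecipitated from them after they had been exposed to 254 nm ultraviolet light at 200 mJ per square cm. The RNA that came down (2 DDX20 RIP libraries) was compared with 2 input libraries made from 10% of the total RNA, with no antibody used. The labels give the catalogue number of the antibody differently for the RIP libraries, by 1 character. They name no other treatment or allele in either group, do not give the number or sex of the mice, and do not say that the replicates came from separate preparations, and what the p-values measure is the spread between these libraries, which can be technical. No precipitation with an unrelated antibody was used here, so a higher value means a larger share of the RIP library than of the input, which is not by itself binding by DDX20.

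The pore is built from repeated modules. The Y complex forms the outer rings on both faces of the nuclear envelope, the inner ring lines the waist, and transmembrane nucleoporins anchor the whole in the membrane. Nucleoporins with phenylalanine-glycine (FG) repeats fill the channel and bind the transport receptors, while filaments on the cytoplasmic side and a basket on the nuclear side take part in the last and first steps of export. In the testis, nucleoporins are made by germ cells and by somatic cells alike, so in these mixed cells a level reflects both the number of cells that make a message and the amount in each, and the measurements cannot tell these apart.

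FG repeats are visible in the coding sequence as a phenylalanine codon followed by a glycine codon. The 5 tested members with the most such codon pairs were Nup214 (46 pairs), Nup98 (41), Nup153 (29), Pom121 (24) and Ranbp2 (20). For each, the stretch of 30 codons within 1 exon that holds the most pairs is shown because these members, although alike in this feature, differed from each other in the precipitate-to-input values reported below. Sequences are read 5′ to 3′ in the sense of the gene from the GENCODE M21 transcripts (GRCm38), with FG codon pairs in capitals.
Nup214 (chr2:32034558-32034647, plus strand, exon 29): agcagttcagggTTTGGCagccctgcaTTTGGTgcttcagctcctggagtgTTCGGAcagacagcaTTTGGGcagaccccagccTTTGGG
Nup98 (chr7:102194959-102195048, minus strand, exon 3): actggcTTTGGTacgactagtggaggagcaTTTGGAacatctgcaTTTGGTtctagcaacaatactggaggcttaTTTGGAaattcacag
Nup153 (chr13:46684058-46684147, minus strand, exon 19): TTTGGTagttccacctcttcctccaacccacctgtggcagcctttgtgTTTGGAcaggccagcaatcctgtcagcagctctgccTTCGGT
Pom121 (chr5:135381290-135381379, minus strand, exon 11): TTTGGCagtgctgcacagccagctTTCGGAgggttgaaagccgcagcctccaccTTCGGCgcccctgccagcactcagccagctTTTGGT
Ranbp2 (chr10:58488578-58488667, plus strand, exon 25): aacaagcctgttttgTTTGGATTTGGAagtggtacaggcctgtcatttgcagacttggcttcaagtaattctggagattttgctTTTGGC

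Library totals ran from 21416567 to 21913977 counts for input and from 37927689 to 38458014 for RIP. Ddx20 itself stood at 41.4 and 41.2 CPM (a gene's counts relative to its library total, with library sizes scaled by the trimmed mean of M values, TMM) in input and at 77.6 and 83.2 CPM in RIP. Markers of all 7 testis cell classes examined were present in the input, where the summed level of 7 Sertoli cell genes was at least 3335 CPM and that of 7 germ cell genes at least 729 CPM. The summed level of each class was lower in both RIP libraries than in both input libraries, for example 392 to 398 CPM for germ cells and 2124 to 2130 CPM for Sertoli cells. Single genes weighed heavily in these sums, with Uchl1 at 485 CPM and Clu at 2069 CPM in input. Of 34 markers, 25 were called lower and 5 higher by the test described next, against 38.6% and 38.7% of all genes. Those higher were Zbtb16 (0.38 log2 units) and Gfra1 (0.35) of germ cells, Wt1 (0.70) and Gata4 (0.26) of Sertoli cells, and Pdgfra (0.35) of stromal cells. These calls depend on the scaling. With libraries scaled by total counts or by upper quartile, 1 Sertoli cell marker and no germ cell or stromal marker was called higher. With the offset for coding length described below, 2 Sertoli cell markers and no germ cell or stromal marker were called higher. None of the markers was at 0 in every library. The part of these marker differences in the results below was not tested.

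Messages of the nuclear pore were over-represented in the precipitate. Of the 30 nucleoporins tested, 24 (80%) were higher in RIP and 3 were lower at an adjusted p of 0.05 (quasi-likelihood test of edgeR, adjusted by the Benjamini-Hochberg method), and 3 did not pass. Over all 17422 genes tested, 38.7% were higher and 38.6% lower. At least 2-fold higher were 15 nucleoporins (50%), against 17.1% of all genes, and no nucleoporin was called 2-fold lower, against 23.5% of all genes. The median log2 fold change was 1.00 for nucleoporins and -0.05 for all genes. Together the nucleoporins made up 0.277% and 0.274% of all counts of input and 0.538% and 0.546% of those of RIP.

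The number of members below input depends on the scaling. With total counts alone, which moved the median of all genes to -0.40, 21 nucleoporins were higher and 9 lower, against 28.7% and 50.8% of all genes, and with upper-quartile scaling the counts were also 21 and 9. Seh1l, Nup62 and Aaas were then called lower instead of higher, and Sec13, Nup35 and Nupl2 were called lower instead of not at all. All values below are relative to TMM scaling.

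**Figure D1:**
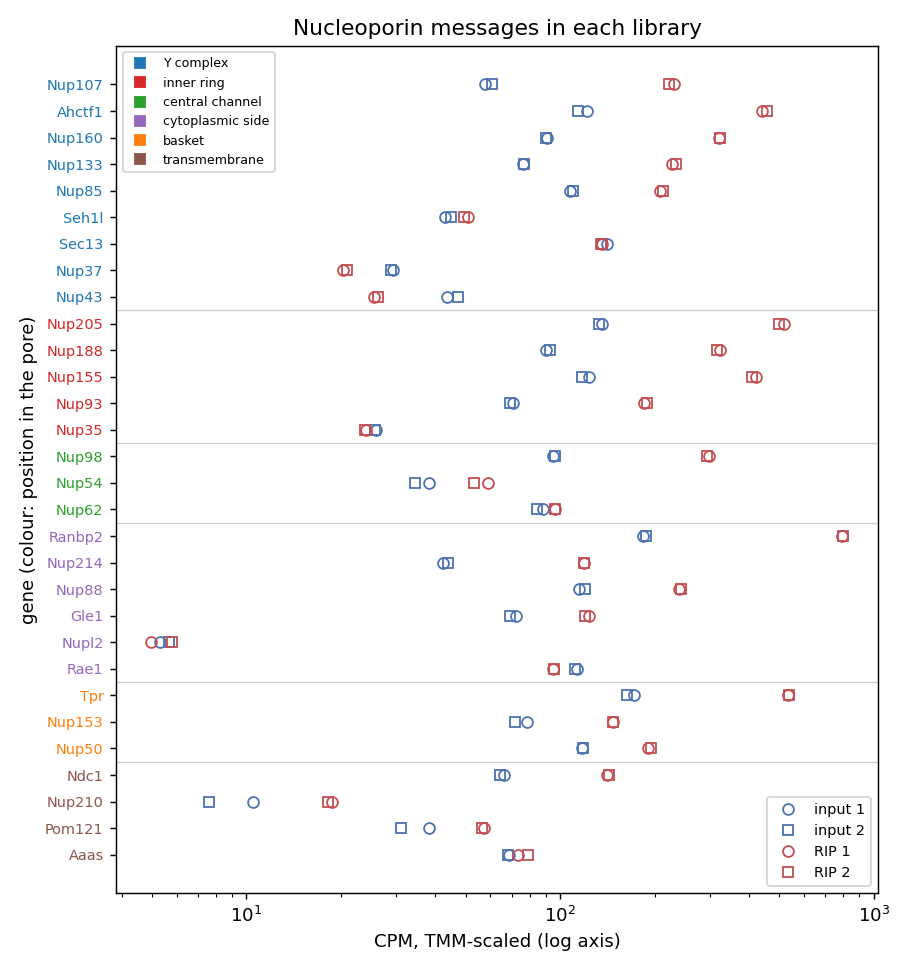
Level of each tested nucleoporin message in each library, in TMM-scaled CPM on a log axis, with circles for replicate 1 and squares for replicate 2, blue for input and red for RIP. The largest separation is that of Ranbp2, from 184 and 188 CPM in input to 790.5 and 799 CPM in RIP, whereas the points of Sec13 and Nupl2 overlap.

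Within the Y complex the large scaffold subunits were higher in RIP and the small subunits stood close to or below their input level. Of its 9 members 6 were higher and 2 lower, and the median log2 fold change was 0.96. Nup107, a helical scaffold subunit of the stem, was at 57.7 and 60.9 CPM in the input and at 231 and 223 CPM in RIP. Its log2 fold change of 1.94 ± 0.0406 (SE, n = 2 libraries per group) placed it above 98.1% of all genes tested. Its partner in the stem, Nup133, rose from 76.0 and 76.8 CPM to 227 and 234 CPM. Nup160, in one of the arms, rose from 90.8 and 90.3 CPM to 321 and 324 CPM. All 3 of these genes were called higher, where 38.7% of all genes were called higher and 38.6% lower.

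Ahctf1 encodes ELYS, the DNA-binding subunit that starts pore assembly on chromatin after mitosis. It stood at 121 and 114 CPM in input and at 440.4 and 457 CPM in RIP, a log2 fold change of 1.93 ± 0.0334. Nup85, in the short arm of the Y, rose less, from 108 and 109.8 CPM to 209 and 213 CPM (log2 fold change 0.96 ± 0.0359). The small subunits differed from these. Nup43 was at 43.7 and 47.2 CPM in input and at 25.5 and 26.3 CPM in RIP, the largest decrease among the nucleoporins (-0.81 ± 0.0703), and Nup37 fell from 29.4 and 28.9 CPM to 20.4 and 20.99 CPM. Sec13, which the Y complex shares with the COPII coat of secretory vesicles, was at 141 and 136 CPM in input and at 136 and 135 CPM in RIP, with a log2 fold change of -0.03 ± 0.0372 that did not pass the test. Seh1l, its relative, was at 42.8 and 44.9 CPM in input and at 51.0 and 49.4 CPM in RIP (0.19 ± 0.0609), and stood at -0.15 with total counts. Nup107 lies on chromosome 10 from 117750621 to 117792705, Ahctf1 on chromosome 1 from 179744894 to 179803680 and Nup43 on chromosome 10 from 7667503 to 7678881 (GRCm38), all annotated as protein-coding.

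In the inner ring 4 of 5 members were higher, where 38.7% of all genes were, and none was called lower. The median of 1.79 was the highest of the 6 classes. Median coding lengths were 4173 nt for this class, 4386 nt for the basket and from 1578 to 2809.5 nt for the others. With the offset for coding length described below, the median was 0.64 for the inner ring and from -0.12 to 0.59 for the others. Nup205 and Nup188 are large related scaffold proteins. Nup205 rose from 136 and 133 CPM to 517 and 499 CPM (1.92 ± 0.0308), and Nup188 from 90.1 and 92.8 CPM to 323 and 317 CPM (1.81 ± 0.0346). Nup155, which links the ring to the membrane, rose from 123 and 118 CPM to 421 and 409.9 CPM. Nup93, the hub that holds the ring and the channel together, rose from 70.8 and 69.2 CPM to 185 and 189 CPM (1.42 ± 0.0396). Nup35, the small membrane-binding member, was at 25.9 and 25.7 CPM in input and at 24.0 and 23.9 CPM in RIP. Its log2 fold change of -0.11 ± 0.0779 did not pass the test under TMM, and it was called lower after total-count (-0.46) or upper-quartile scaling (-0.45).

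The channel class had 4 members, of which 3 could be tested. Nup98, whose gene also encodes the Y complex subunit Nup96 as the second part of a precursor protein, was at 94.6 and 96.7 CPM in input and at 298 and 295 CPM in RIP (1.63 ± 0.0345). The partners in the central FG trimer rose less. Nup54 was at 38.2 and 34.6 CPM in input and at 58.9 and 53.3 CPM in RIP (0.62 ± 0.0661), and Nup62 at 88.1 and 84.2 CPM in input and at 96.5 CPM in both RIP libraries (0.16 ± 0.0433). Nup62 stood at -0.19 with total counts. The other member of that trimer, Nupl1 (Nup58), was listed with 0 counts in each of the 4 libraries. In GENCODE M21, exons of the protein-coding gene model Gm49336, on the same strand, cover 48.8% of the exonic length of Nupl1. Gm49336 had 974 and 1024 counts in input and 1608 and 1682 in RIP. How reads over exons shared by both were counted is not given in the sources used here, so the 0 does not show that the message was absent.

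On the cytoplasmic side 4 of 6 members were higher and 1 lower, where 38.7% and 38.6% of all genes were. Ranbp2 (Nup358), the giant filament protein that binds Ran and acts as a SUMO ligase, had the largest increase of all nucleoporins, from 184 and 188 CPM to 790.5 and 799 CPM. Its log2 fold change of 2.10 ± 0.0276, a 4.27-fold difference, was above that of 98.9% of all genes tested. It lies on chromosome 10 from 58446920 to 58494356 (GRCm38). Nup214, an FG nucleoporin of the filaments, rose from 42.4 and 43.8 CPM to 119 CPM in both RIP libraries, and its partner Nup88 from 115 and 119.6 CPM to 239.9 and 244 CPM. Gle1, which activates the export helicase DDX19, rose from 72.6 and 69.4 CPM to 123 and 119.99 CPM (0.78 ± 0.0432). Rae1, a beta-propeller that binds Nup98, was lower in RIP, at 113 and 112 CPM in input against 95.2 and 95.9 CPM in RIP (-0.23 ± 0.0405). Nupl2 (Nup42), the partner of Gle1, had the fewest counts of the tested members, 131 and 137 in input and 168 and 196 in RIP, and its log2 fold change of -0.03 ± 0.166 did not pass.

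All 3 basket genes were higher, where 38.7% of all genes were. Tpr, the coiled-coil backbone of the basket, rose from 172 and 164 CPM to 533 and 535 CPM (1.67 ± 0.0298). Nup153, which attaches it to the pore, rose from 78.2 and 71.9 CPM to 147 CPM in both RIP libraries (0.97 ± 0.0427). Nup50, a mobile cofactor of importins, rose from 118 CPM in both input libraries to 191 and 195 CPM (0.71 ± 0.0358). The membrane class was also higher throughout with TMM scaling, with 4 of 4 called, although Aaas was called lower with total counts (-0.19) and upper-quartile scaling (-0.19). With the offset for coding length described below, 1 of the 4 was higher and 1 lower. Ndc1, the membrane protein that recruits Aaas, rose from 66.4 and 64.5 CPM to 141 and 143 CPM (1.12 ± 0.0421). Nup210 was rare in input, at 10.5 and 7.62 CPM, and stood at 18.8 and 18.2 CPM in RIP (1.02 ± 0.119). Pom121 rose from 38.3 and 31.2 CPM to 57.3 and 56.2 CPM (0.71 ± 0.0707). Aaas, which encodes ALADIN, was at 68.5 and 68.2 CPM in input and at 73.3 and 78.9 CPM in RIP (0.16 ± 0.05), with the largest adjusted p of the called members (0.0057, edgeR). Its call was lost when either input library (0.18 without replicate 1, 0.15 without replicate 2) or the second RIP library (0.14) was left out. Aaas is a peripheral protein, placed in this class as the partner of Ndc1.

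**Figure D2:**
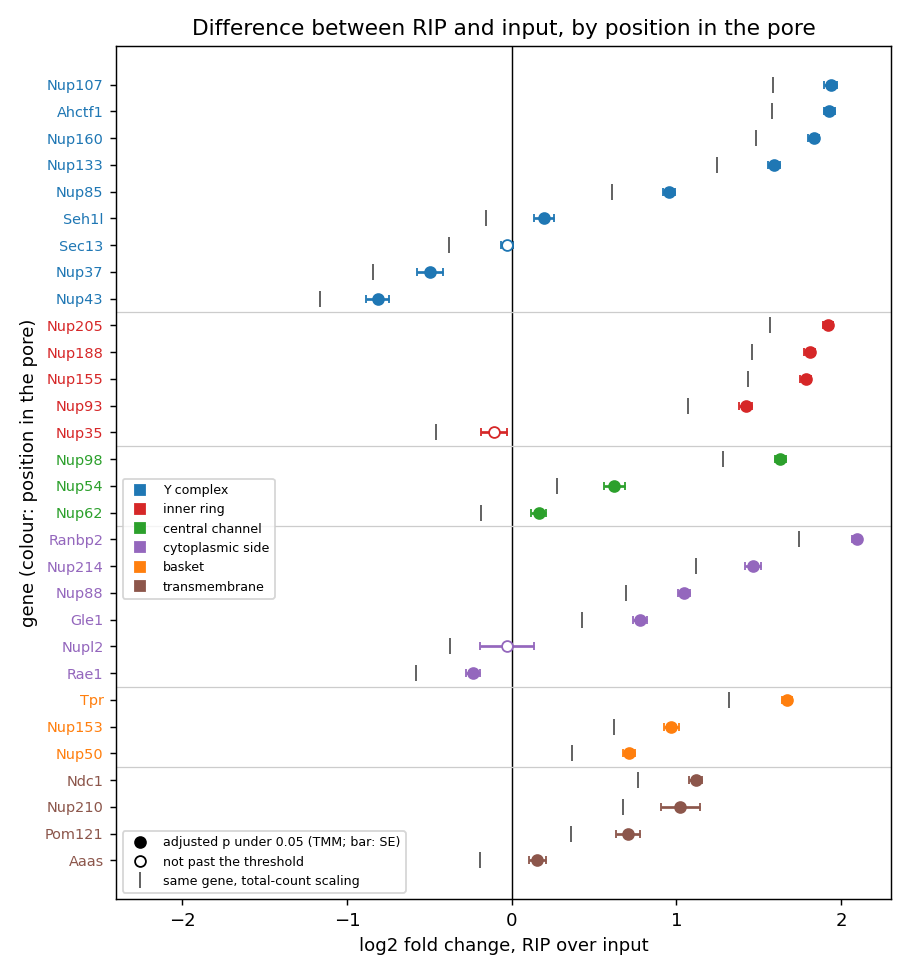
Log2 fold change of RIP over input for each tested nucleoporin, with its standard error as a bar, grouped by position in the pore; filled points passed an adjusted p of 0.05, open points did not, and the vertical ticks give the value with total-count scaling. Values run from -0.81 for Nup43 to 2.10 for Ranbp2, and within the Y complex, the inner ring and the cytoplasmic side members lie on both sides of 0.

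Messages of 1 structure differed in their log2 fold change. Nup107 and Nup43, the highest and lowest of the Y complex, were separated by 2.75 log2 units. Their coding lengths differ too, at 2778 and 1140 nt. With an offset for coding length, described below, they stood at 1.23 and -0.65.

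The values of the members rose with the coding length of their messages. Across the 30 members, the Spearman rank correlation between coding length (of the best-ranked transcript in GENCODE M21) and log2 fold change was 0.858, against 0.637 across the 14686 coding genes tested. The number of exons in that transcript gave 0.849 across the members and 0.484 across the coding genes. The length of the 3′ untranslated region gave 0.109 and 0.266. These are descriptions across genes that share the same 4 libraries. All 18 members with at least 2000 nt of coding sequence were higher in RIP, from 0.71 for Pom121 to 2.10 for Ranbp2, against 75.7% of 4315 coding genes of that length (8.81% were lower). Of the 12 shorter members 6 were higher and 3 lower, against 30.6% and 45.9% of 10371 genes. With total counts the 18 long members were also all higher, and 9 of the 12 short ones were lower. The length of 2000 nt was chosen after the values were seen.

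The FG codon pairs shown above did not order the members in this way (Spearman rank correlation 0.218). Ranbp2, Nup98 and Nup214 rose by 2.10, 1.63 and 1.47 log2 units, and Nup153 and Pom121, which also code for long FG domains, by 0.97 and 0.71. Nup205 and Ahctf1, with 4 and 2 pairs, rose by 1.92 and 1.93.

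**Figure D3:**
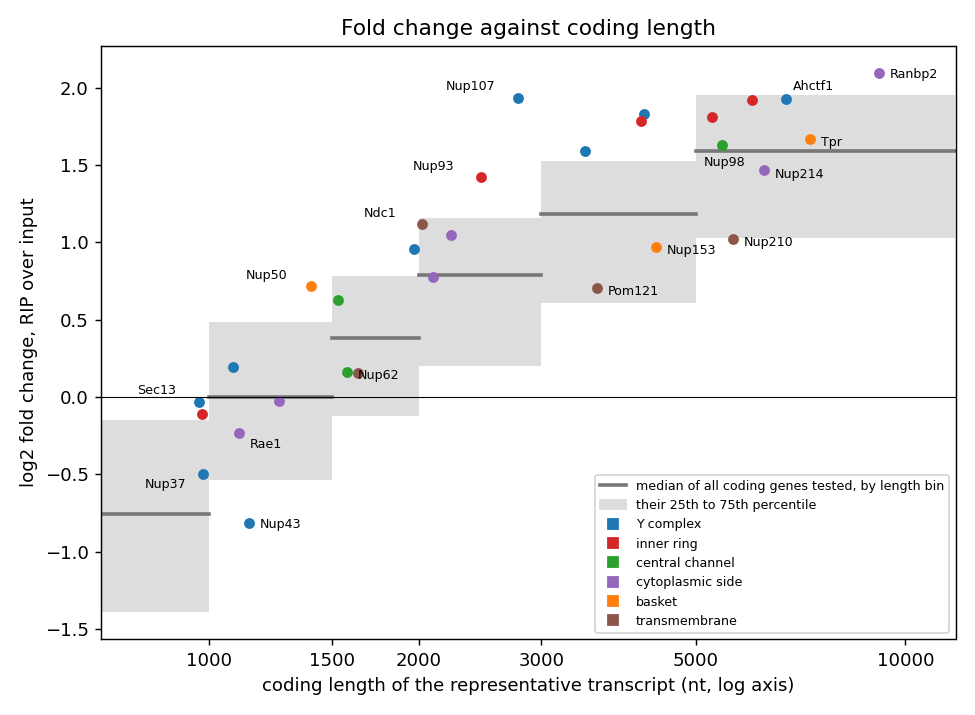
Log2 fold change of RIP over input against coding length in nt (log axis) for the 30 tested nucleoporins, coloured by position in the pore; grey lines are the medians and grey boxes the 25th to 75th percentiles of all coding genes tested in 6 length bins. The medians climb from -0.76 under 1000 nt to 1.59 from 5000 nt, and 20 of 30 nucleoporins lie above the median of their bin.

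Genes of a similar length give a closer comparison. Nup107 has 2778 nt of coding sequence, and its 1.94 stood above the upper quartile of 1.16 of the 2289 genes with 2000 to 3000 nt. Nup93, with 2457 nt and a value of 1.42, was above it too. Among the 1377 genes with 3000 to 5000 nt, Nup160 (1.83), Nup155 (1.79) and Nup133 (1.59) were above the upper quartile of 1.53, whereas Nup153 (0.97) and Pom121 (0.71) were below the median of 1.18. Nup43 and Nup50 both fall between 1000 and 1500 nt, where the quartiles were -0.54 and 0.48. Nup43 (-0.81) lay below that range and Nup50 (0.71) above it. The bin with the largest number of nucleoporins, 8 of 30, was that of the 649 genes with at least 5000 nt. There the median was 1.59 and the upper quartile 1.95. Only Ranbp2 (2.10) was above that quartile. Ahctf1 (1.93), Nup205 (1.92), Nup188 (1.81), Tpr (1.67) and Nup98 (1.63) lay between the median and the upper quartile, and Nup214 (1.47) lay below the median. Nup210, with 5658 nt, was just under the lower quartile of this bin (1.02 against 1.03).

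A smooth offset for coding length was then added to the model, as an alternative. Values with the offset are relative to the trend of all coding genes with length. A gene called higher with it can have a lower CPM in RIP than in input, as Nup35 and Sec13 have. With the offset 21 of 30 nucleoporins were higher and 3 lower, against 44.7% and 29.2% of 14686 coding genes. The median log2 fold change stood at 0.44 for nucleoporins and at 0.13 for all. Only Nup107 kept a 2-fold increase (1.23 ± 0.0404). The inner ring was higher in 5 of 5 cases, with Nup93 at 0.84 and Nup35 at 0.30, and the Y complex in 7 of 9, with Sec13 at 0.39 and Seh1l at 0.46. In the other classes the members higher were 2 of 3 (channel), 4 of 6 (cytoplasmic side), 2 of 3 (basket) and 1 of 4 (membrane). Nup43 remained lower (-0.65 ± 0.0707). Pom121 (-0.23) and Nup153 (-0.10) were called lower instead of higher, and Nup210 (-0.21 ± 0.119) and Aaas (-0.02) stood below 0 without passing. Ranbp2 and Tpr were higher by 0.63 and 0.30. Nup37 (-0.09), Rae1 (-0.01) and Nup62 (0.02) lost their calls. An offset for exonic length in its place gave 26 higher and 2 lower nucleoporins, against 40.4% and 29.9% of 17357 genes. At least 2-fold higher were then 10 nucleoporins.

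**Figure D4:**
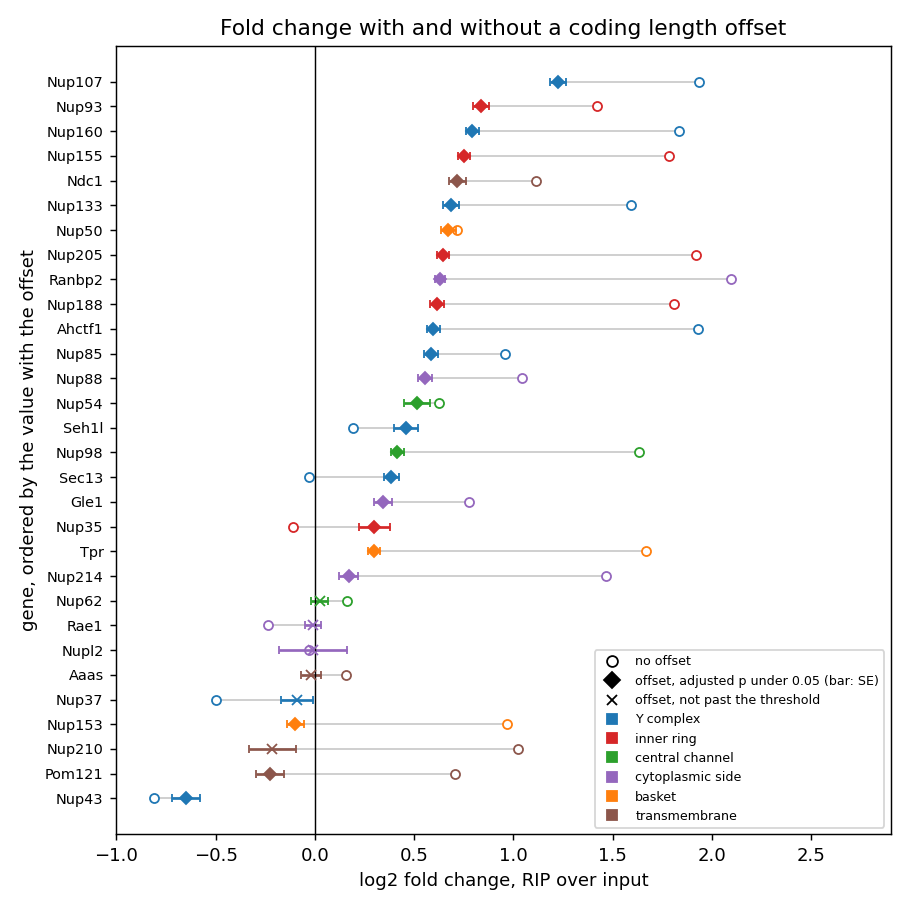
Log2 fold change of each tested nucleoporin without (open circles) and with (diamonds where adjusted p was under 0.05, crosses otherwise) an offset for coding length, with standard errors, ordered by the value with the offset. Values with the offset are relative to the trend of all coding genes with length. Nup107 is highest at 1.23 and Nup43 lowest at -0.65. Members with at least 2000 nt of coding sequence move left, as do the shorter Nup85, Nup54, Nup62, Nup50 and Aaas. Sec13, Seh1l, Nup35, Nup37, Nup43, Rae1 and Nupl2 move right.

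Levels between genes were compared per kb of transcript. In the input, Sec13 was highest at 102 CPM per kb, followed by Rae1 (64.5), Nup88 (49.0) and Nup85 (48.8). Nup210 and Nupl2 were lowest of the tested members, at 1.29 and 1.88 CPM per kb. In RIP the order changed. Nup88 (101), Sec13 (100.3), Nup85 (94.6), Ranbp2 (82.7) and Nup205 (79.3) led, and Nupl2 and Nup210 were again lowest at 1.85 and 2.63 CPM per kb. The transcript length is that of the annotation, which may not be the isoform made in these cells.

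Some members share exonic bases with another gene, and the library kit does not mark strand. Antisense or neighbouring genes on the other strand overlap 11.9% of the exonic length of Pom121 (Nsun5), 7.9% of Nup188 (Gm14471) and 6.6% of Nup133 (Gm29773). How far reads from these genes enter the members' counts was not tested, so these values are uncertain. On the same strand, the largest overlap after that of Nupl1 with Gm49336 was 6.7%, of Nupl1 with Atp8a2.

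Genes for transport receptors, the Ran cycle, mRNA export and the nuclear envelope are described beside the pore. Of these 50 genes 40 were higher and 8 lower, where 38.7% and 38.6% of all genes were, and the median stood at 1.07 on the log2 scale. With total counts 35 were higher and 12 lower (28.7% and 50.8% of all genes), and with the offset for coding length 38 and 3 (44.7% and 29.2%). Importins, which carry cargo inward, were higher in 16 of 17 cases (14 with total counts). Kpnb1, importin beta, was at 637 CPM in input and 2074 CPM in RIP (1.70 ± 0.0227), and Ipo5 rose by 1.88 ± 0.0264. All 7 exportins were higher, with total counts too, among them Xpo1 (0.96 ± 0.0304), the exporter of proteins and small nuclear RNAs, and Cse1l (1.24 ± 0.0318), which returns importin alpha to the cytoplasm. With the offset for coding length 14 of 17 importins and 6 of 7 exportins were higher, and Xpo1 and Cse1l stood at 0.10 and 0.48.

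Of 6 Ran cycle genes 3 were higher and 3 lower, shares close to each other as they were over all genes. Rangap1, the GTPase activator anchored at Ranbp2, rose by 1.22 ± 0.0285 and Ranbp3 by 0.69 ± 0.0370, while the message of Ran itself fell by 0.38 ± 0.0277 and that of Ranbp1 fell by 0.97 ± 0.0536. With the coding length offset, which gives values relative to the length trend, Ran stood at 0.35 and was called higher. Ranbp1 stood at -0.19 with it. Of 10 mRNA export genes 6 were higher and 3 lower, where 38.7% and 38.6% of all genes were. With total counts 4 were higher and 4 lower, where 28.7% and 50.8% of all genes were. Mcm3ap, which encodes the scaffold GANP of the TREX-2 complex at the pore, rose by 1.97 ± 0.0402 and Ddx39b by 0.45 ± 0.0334, whereas Eny2, a small subunit of TREX-2, fell by 0.90 ± 0.0673 and Nxt1, the small subunit of the export receptor, fell by 1.13 ± 0.0607. Relative to the length trend, with the same offset, Eny2 was called higher (0.43), Nxt1 was not called (-0.02) and Mcm3ap stood at 0.70. Ddx39b stood at 0.10 with total counts. At the nuclear envelope 8 of 10 genes were higher, where 38.7% of all genes were. Lmna (1.29 ± 0.0284) and Tmpo (1.08 ± 0.0308) were the most abundant of them. Banf1 and Emd, whose products bind chromatin and lamins, fell by 1.44 ± 0.0372 and 0.62 ± 0.0676, and neither was called with the coding length offset (-0.04 for both).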

How the data were processed

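RNA from DDX20 immunoprecipitates and input of mouse testis cells was sequenced as 150-nt read pairs (NEBNext Ultra RNA kit, per the labels' protocols). The deposited table holds the authors' raw read counts per gene, 1 column per library; groups and replicate numbers come from the sample titles. The submitters' processing notes name Trimmomatic 0.36, cutadapt 4.1, STAR 2.7.2b, SAMtools and featureCounts with GRCm38; of the settings and the annotation release nothing is given in the sources used here. Between 65.37% and 67.4% of nonzero counts were even, so both mates of a pair may have been counted, and the depth behind a value is then overstated. Symbols, lengths, exons and coding sequences come from GENCODE M21, which names 52081 identifiers; 35 carry the same version, so the counted gene models can differ.

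Genes kept by filterByExpr were scaled by TMM and tested with edgeR 4.0.16 (robust quasi-likelihood) in R 4.3.3; p-values were adjusted by the Benjamini-Hochberg method across every gene tested, and 0.05 was the threshold. The standard error was taken as the size of the log2 fold change over the square root of F. Replicates differed by 1.17 (input) and 1.13 (RIP) times counting noise (median chi-square statistic of halved counts), against 45.8 between an input and a RIP library, and were kept as separate samples. Alternatives were other scalings and filters, DESeq2 1.42.0, limma-voom (limma 3.58.1), the replicate number as a block, each library left out, halved counts, a test against 1.5-fold, and loess offsets (span 0.3) for coding and exonic length. An assumed coefficient of variation of 0.2 was added after seeing the data. The pipeline was tested on simulated data. Named genes were all 31 nucleoporins, Ddx20 and, from each list of other transport genes, the 2 called members with the highest mean CPM per direction. The members and lists were chosen with earlier results of these data known.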

Additional observations from a re-analysis of the deposited data

How the results depend on the processing

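The direction and call of 18 of the 30 nucleoporins were the same under every alternative run. Total counts and upper-quartile scaling gave 9 lower nucleoporins each and medians of 0.648 and 0.655, a filter at 1 CPM gave 5 and 0.913, and a test against 1.5-fold and an assumed coefficient of variation of 0.2 gave 1 lower nucleoporin each. Over all genes the test against 1.5-fold called 4210 higher and 4426 lower, and the coding length offset called 4281 lower. The median was 1.05 with no low-count filter, 0.948 with halved counts, 0.682 with an exonic length offset and 0.437 with a coding length offset, and from 0.942 to 1.043 with each library left out. By sign, total counts put Seh1l at -0.154, Nup62 at -0.186 and Aaas at -0.193, and upper-quartile scaling put them at -0.148, -0.179 and -0.186. The coding length offset put Sec13 at 0.386, Nup35 at 0.3, Nup153 at -0.099, Nup210 at -0.214, Pom121 at -0.227 and Aaas at -0.021. The exonic length offset put Sec13 at 0.207, Nup35 at 0.085, Rae1 at 0.182 and Nupl2 at 0.067. Uncalled members crossed 0 with no filter (Sec13 0.024, Nupl2 0.026) and with libraries left out (Sec13 from -0.051 to 0.017, Nupl2 from -0.104 to 0.116). The causes were not tested. Same-numbered libraries did not deviate together (correlation -0.001 over 17422 genes). With the replicate number as a block the calls were 24 higher and 3 lower with a median of 1.001, and over all genes 6734 higher and 6655 lower. The members with the fewest counts, Nupl2 and Nup210, had the largest standard errors, 0.166 and 0.119, and Nup210 ran from 0.812 without input replicate 2 to 1.298 without input replicate 1.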

Other observations

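Paralogs of nucleoporin genes, chosen after their values were seen, were rare. Nup62cl, a relative of Nup62, had 218 and 186 counts in input and 105 and 74 in RIP, with a log2 fold change of -1.64 ± 0.183. Nup210l, a relative of Nup210 known from germ cells, had 19 and 6 counts in input and 47 and 42 in RIP, with a log2 fold change of 1.36 ± 0.449. Reads that match both a paralog and its relative could have been counted for either, so these values are uncertain. Gm49336, the gene model that covers part of Nupl1, was higher in RIP by 0.25 ± 0.0631.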
